A study of Mus musculus with 12 samples.

Results

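Cytosolic ribosomal protein genes were described in whole mouse lung: the genes for the proteins of the small and large subunits of the ribosome, outside mitochondria. They were chosen by symbol, as protein-coding rows named Rpl or Rps with a number, Rplp0 to Rplp2 or Rpsa, leaving out the ribosomal S6 kinases. The rule found 83 of the 23127 genes in the deposited table. They were 31 of the small subunit, 43 of the large subunit, 3 of the stalk and 6 paralogues (genes related in sequence to another of these genes). Bulk RNA sequencing covered 12 C57BL6/J mice, 4 in each of 3 groups, and each library is a separate mouse. The control group was sampled at 0 weeks. The other groups had received L-NAME, an inhibitor of nitric oxide synthase, at 0.5 g/L in the drinking water together with a diet of 60% lipid, for 2 or for 5 weeks. Control mice of 2 or 5 weeks were not analysed here, so time on study and treatment cannot be told apart, and age is not given in the sources used here. Libraries were numbered 1 to 4 within a group only to name them. Lung markers were present in all 12 libraries: Sftpc, of alveolar type 2 cells, lay between 9794 and 18046 CPM, and Ager, of alveolar type 1 cells, between 1459 and 2183 CPM. CPM is a gene's assigned reads scaled to the same total in each library.

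A ribosome translates messenger RNA. Its small subunit reads the codons, its large subunit joins the amino acids, and the stalk recruits the elongation factors. Each ribosome holds most of these proteins once, and cells make them in step with ribosomal RNA. Many of their mRNAs begin with a run of pyrimidines, the 5′ TOP motif, through which mTORC1 controls their translation, so that an mRNA level is not a rate of protein synthesis. Mammalian genomes also carry many processed pseudogenes of these genes, which are reverse-transcribed copies of their mRNAs, and a read from the mRNA can fit both.

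Promoter sequences show what these genes share outside their coding parts. Of the 83 genes, 63 matched the RefSeq promoter table of build GRCm38.p6, with 75 start sites. The table holds 250 bases before to 50 bases after each start. Shown are the 4 genes with an unadjusted p under 0.05 in a comparison of 2 groups below, and 2 genes that carry the searched letters close to the start. The windows run from 100 bases before the start to the 20 bases that begin there, 5′ to 3′ on the gene's strand. They lie at chr2:32961612-32961731 (Rpl12, plus strand), chr7:28350589-28350708 (Rps16, plus), chr12:28635934-28636053 (Rps7, minus), chr5:65391412-65391531 (Rpl9, minus), chr3:86142649-86142768 (Rps3a1, minus) and chr2:39005112-39005231 (Rpl35, minus), all on GRCm38.p6. The deposited table places the genes elsewhere, in a build it does not name: Rpl12 on chromosome 2 from 32851571 to 32855357, Rps16 on chromosome 7 from 28050077 to 28052580, Rps7 on chromosome 12 from 28680853 to 28685952 and Rpl9 on chromosome 5 from 65545707 to 65548787. Capitals mark CCGGAAG, a form of the ETS-family core, and the pyrimidine run CTCTTTC, on either strand.
Rpl12: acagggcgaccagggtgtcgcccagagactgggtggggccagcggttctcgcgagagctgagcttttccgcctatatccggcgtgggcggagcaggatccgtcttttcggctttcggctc
Rps16: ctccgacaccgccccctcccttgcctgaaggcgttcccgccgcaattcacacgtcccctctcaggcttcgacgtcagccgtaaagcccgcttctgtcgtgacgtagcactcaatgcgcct
Rps7: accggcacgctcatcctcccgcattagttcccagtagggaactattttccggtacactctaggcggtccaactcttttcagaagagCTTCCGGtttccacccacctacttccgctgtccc
Rpl9: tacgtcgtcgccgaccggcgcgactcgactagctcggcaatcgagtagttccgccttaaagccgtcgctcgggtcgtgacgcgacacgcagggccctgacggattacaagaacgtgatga
Rps3a1: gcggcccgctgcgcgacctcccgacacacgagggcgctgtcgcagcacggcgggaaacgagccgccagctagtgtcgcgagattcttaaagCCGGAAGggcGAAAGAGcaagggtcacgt
Rpl35: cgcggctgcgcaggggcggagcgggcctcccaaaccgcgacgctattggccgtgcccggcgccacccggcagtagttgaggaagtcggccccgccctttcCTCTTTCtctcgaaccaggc

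CCGGAAG, searched on both strands as CCGGAAG or CTTCCGG, was found in the promoters of 26 of the 63 genes (41.3%), against 9.93% of the 27025 genes of the promoter table. The pyrimidine run CTCTTTC, searched with its complement GAAAGAG, was found in 18 (28.6%), against 9.28%. On the gene's own strand from 30 bases before to 50 after the start, where a TOP motif would lie, CTCTTTC was in 12 genes (19%), against 1.28%. Rpl35 shows that run at its start. The Rps3a1 window holds CCGGAAG and the complement GAAAGAG, so its pyrimidine run lies on the opposite strand and not where a TOP motif would be read. CTTTTC was in 17 genes (27%) on either strand, against 24.3%, but near the start on the gene's strand in 14.3%, against 3.31%. The letters AAGATGG were in 10 genes (15.9%), against 7.28%, and the TATA-box letters TATAAA in 7 (11.1%), against 15.7%. These are matches of letters and not sites of binding. Each motif was counted on its own, and neighbouring matches can share bases, as the end of CCGGAAG with the start of AAGATGG, the end of TATAAA with the start of AAGATGG, or CTCTTTC with CTTTTC.

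A pair of libraries has to be known before the comparisons. 5-week replicate 3 held the highest level of its group for every one of the 82 tested genes, and control replicate 4 the lowest of its group for 75. Over all 15562 tested genes, 5-week replicate 3 was the highest of 12 for 22.1% and the lowest for 24.8%, and control replicate 4 for 16.2% and 18.4%. The spacing of the low values gives a depth of 25900000 to 34000000 assigned reads a library. No pair of libraries was identical, with Pearson's r over these genes between 0.952 and 0.995. The direction of the family is therefore given with and without 5-week replicate 3 and control replicate 4. Since lung is a mixture, fewer cells of a type and less RNA per cell cannot be told apart.

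Ribosomal protein genes took between 1.03% and 1.97% of the CPM of a library. The control libraries held 1.32%, 1.22%, 1.34% and 1.03%, and the 2-week libraries 1.19%, 1.14%, 1.15% and 1.26%. The 5-week libraries held 1.23%, 1.17%, 1.97% and 1.21%. Their means were 1.23% ± 0.141 (SD, n = 4) at 0 weeks, 1.18% ± 0.0539 at 2 weeks and 1.39% ± 0.384 at 5 weeks. The ranges of all 3 groups overlap, and 3 of the 4 libraries at 5 weeks lie within the range of the controls. The plot of shares shows the same shape in the pseudogene rows that share sequence with these genes.

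**Figure D1:**
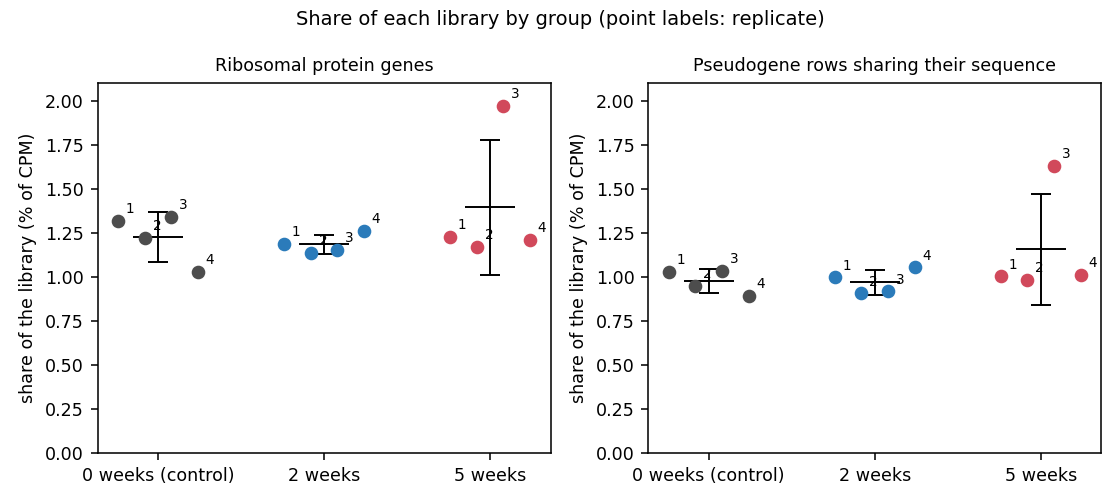
Share of each library (% of CPM) taken by the 83 ribosomal protein genes (left) and by 473 pseudogene rows that share coding sequence with them (right). Points are libraries labelled by replicate, and bars give the group mean and SD of 4. 5-week replicate 3 stands above all others in both panels, at 1.97% and 1.63%.

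The genes differed widely in level. Per kb of transcript, which corrects for length, the most abundant were Rps15 at 957 CPM per kb, Rplp1 at 724, Rps9 at 614, Rpl8 at 589 and Rps14 at 575. Rps15 and Rps14 lie in the head and the platform of the small subunit, and Rpl8 lies near the catalytic centre of the large one. The least abundant were Rpl39l at 0.105 CPM per kb, Rpl3l at 2.49, Rpl37 at 3.05, Rpl23a at 4.11 and Rps27 at 4.67. Rpl39l and Rpl3l are paralogues with narrow tissue patterns, but Rpl37, Rpl23a and Rps27 are core proteins held once by a ribosome. Among the 77 core genes the highest level per kb was 314 times the lowest. In all, 39 of the 83 genes averaged at least 100 CPM and 10 averaged under 10 CPM. These levels are as deposited, and per kb uses 1 GENCODE M21 transcript a gene.

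Sequence shared with other genes went with the deposited level. Each coding sequence was divided into overlapping stretches of 50 bases, and stretches found in transcripts of another gene were counted. The stretches were all shared for 30 genes. Among core genes the median level was 447 CPM per kb for the 10 with under 50% shared, 198 for the 38 with 50% to under 100%, and 57.4 for the 29 with 100%. In the same table, 473 pseudogene rows of the table share at least 1 such stretch with 77 of the genes. Together these rows averaged 10342 CPM, beside 12688 CPM for the genes themselves. For 35 genes the gene row held under 50% of the sum of its own and its sharing pseudogene rows.

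Rpl23a, whose protein sits beside the peptide exit tunnel, averaged 2.30 CPM, while 11 sharing pseudogene rows summed to 383 CPM. Rpl5 averaged 19.3 CPM beside 543 CPM in 6 rows, and Rpl12 8.06 CPM beside 352 CPM in 5 rows. Rps6, the substrate of the S6 kinases, averaged 92.4 CPM beside 433 CPM in 9 rows. In contrast Rps3 averaged 481 CPM beside 0.386 CPM, and Rps15 478 CPM beside 4.71 CPM. How reads that fit several places were assigned is not given in the sources used here, so a row's own level is uncertain wherever sharing is high. Taking the sharing rows in, the core range per kb was 207-fold, with Rps27, which has no sharing pseudogene row, lowest at 4.67 CPM per kb.

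**Figure D2:**
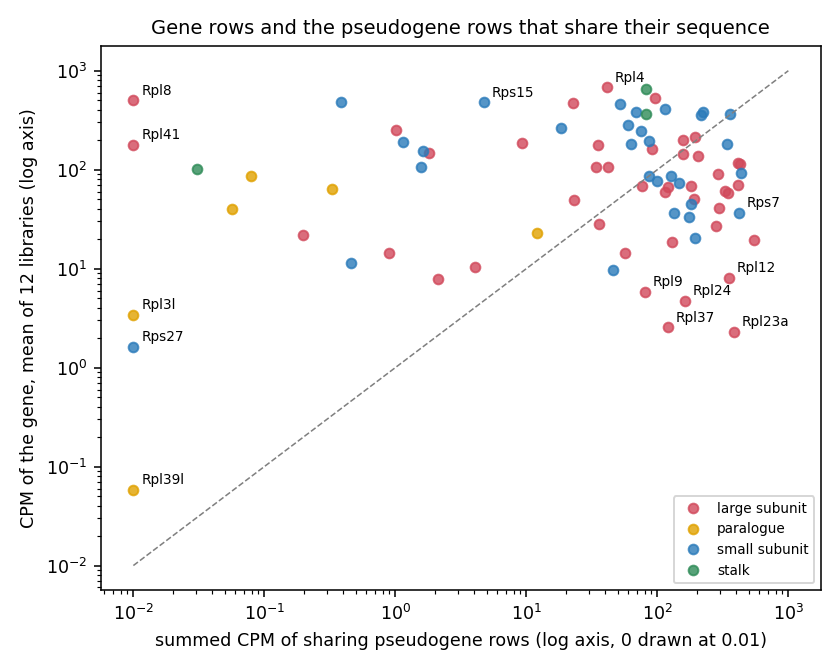
Mean CPM of 82 of the 83 genes (vertical log axis) against the summed CPM of pseudogene rows sharing its coding sequence (horizontal log axis, 0 drawn at 0.01). Colours give the class and the dashed line is equality. 35 genes lie under the line, Rpl23a farthest, at 2.30 CPM against 383 CPM.

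Differences between groups were examined for the 82 genes that averaged 1 CPM or more, on the log2(CPM + 1) scale, with limma and Benjamini-Hochberg adjustment over all 15562 tested genes. The filter left out Rpl39l, a paralogue known from testis, which is listed at 0 in at least 1 library and averaged 0.0579 CPM. It kept Rpl3l only through 1 library at 32.7 CPM. With limma none of the 82 genes passed an adjusted p of 0.05 in any comparison, and neither did any other gene of the table (0% of all tested).

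After 2 weeks, 55.1% of all tested genes were higher than in the controls, with a median log2 difference of 0.02. Of protein-coding genes outside the family with transcripts under 1 kb, 75.3% were higher, with a median of 0.10. Of the 82 ribosomal protein genes, 32 were higher and 50 lower, with a median of -0.03. Without control replicate 4 the count was 14 higher and 68 lower, with a median of -0.11. Without control replicate 3 it was 49 higher and 33 lower, with a median of 0.03, and without control replicate 1 it was 47 and 35, with a median of 0.02, so the direction turned on which control was left out. Only Rpl12, a protein at the base of the stalk, had an unadjusted limma p under 0.05, which is 1 of 82 genes where 9.24% of all tested genes had one. Rpl12 was at 6.44, 7.27, 7.99 and 6.01 CPM in the controls and at 8.18, 8.73, 8.92 and 9.05 CPM after 2 weeks. All 4 values after 2 weeks lay above the controls, which held for 3.37% of all tested genes in this direction, and no gene of the family lay wholly below, against 1.95%. The log2 difference was 0.30 ± 0.12 (SE) with an adjusted limma p of 0.495, and 0.24 without control replicate 4. The Rpl12 row held 2.24% of the sum with its 5 sharing pseudogene rows. With them, Rpl12 was at 347 ± 20.4 CPM in controls and 322 ± 42.9 CPM after 2 weeks (SD, n = 4), and the groups overlap.

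The 5 genes with the lowest log2 differences after 2 weeks were Rpl13, Rpl28, Rpl30, Rpl31 and Rps6. Rps6 was at 109, 93.5, 126 and 67.0 CPM in the controls and between 81.1 and 84.5 CPM in the 4 libraries after 2 weeks. The control values spread on both sides of the 2-week values, and the log2 difference was -0.21 ± 0.18 (SE, limma adjusted p = 0.707). Rpl10, which completes the large subunit at its last step of maturation, had a log2 difference of 0.22 ± 0.12 (adjusted p = 0.589). Its 2-week values were 9.92, 12.6, 14.0 and 10.3 CPM, and its controls lay between 8.85 and 11.2 CPM, overlapping.

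After 5 weeks, 55.0% of all tested genes were higher than in the controls, with a median log2 difference of 0.02. Of protein-coding genes outside the family with transcripts under 1 kb, 80.4% were higher, with a median of 0.12. Of the 82 ribosomal protein genes, 73 were higher and 9 lower, with a median of 0.15. Without 5-week replicate 3 the count was 26 higher and 56 lower, with a median of -0.02. Without control replicate 4 it was 51 higher and 31 lower, with a median of 0.04. Without both it was 8 higher and 74 lower, with a median of -0.13, where 58.4% of all tested genes were higher. Protein-coding genes outside the family with transcripts under 1 kb were then 348 higher and 571 lower, with a median of -0.05. In the family 21 of 82 genes then had an unadjusted limma p under 0.05, beside 1148 of 15558 over all tested genes. The lowest adjusted p in the family was 0.293. The family median was thus above 0 with 5-week replicate 3 and below 0 without it. The last choice of libraries was made after seeing the data.

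With all libraries, Rps16, whose tail reaches the decoding centre, was the only gene with an unadjusted limma p under 0.05, where 8.63% of all tested genes had one. Rps16 was at 68.1, 64.0, 72.1 and 52.3 CPM in the controls and at 72.5, 72.2, 116 and 78.8 CPM after 5 weeks. The lowest 5-week value was 72.2 CPM and the highest control 72.1 CPM, so the groups just failed to overlap, which held for 3.65% of all tested genes in this direction, and no gene of the family lay wholly below, against 1.36%. The log2 difference was 0.38 ± 0.14 (SE, adjusted p = 0.543). Without 5-week replicate 3 it was 0.22, without control replicate 4 it was 0.29, and without both it was 0.13. With its 3 sharing pseudogene rows, which averaged 146 CPM, the groups overlap and the log2 difference of the sum was 0.29. Rpl13a, a large-subunit protein also known for silencing translation of inflammatory mRNAs, was at 443, 404, 473 and 347 CPM in controls. After 5 weeks it was at 456, 415, 895 and 424 CPM, so that 3 of the 4 lie within the control range (log2 difference 0.32 ± 0.20, SE, adjusted p = 0.667).

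From 2 to 5 weeks, 50.2% of all tested genes were higher, with a median log2 difference of 0.00. Of protein-coding genes outside the family with transcripts under 1 kb, 55.4% were higher, with a median of 0.02. In the family 74 genes were higher and 8 lower, with a median of 0.17. Without 5-week replicate 3 the counts were 41 and 41, with a median of 0.00, where 52.4% of all tested genes were higher. Protein-coding genes outside the family with transcripts under 1 kb were then 276 higher and 643 lower, with a median of -0.08. Rps7 and Rpl9 had an unadjusted limma p under 0.05, which is 2 of 82, where 10.9% of all tested genes had one. Rps7, a small-subunit protein that also binds Mdm2, was at 29.2, 32.9, 27.9 and 38.2 CPM after 2 weeks and at 36.6, 40.1, 62.4 and 34.0 CPM after 5 weeks. The ranges overlap, and the log2 difference was 0.39 ± 0.16 (SE, adjusted p = 0.401), and 0.21 without 5-week replicate 3. The Rps7 row averaged 36.7 CPM beside 419 CPM in its 9 sharing pseudogene rows. In that sum the groups overlap too, with a log2 difference of 0.31. Rpl9 went the other way: it was at 7.41, 6.34, 5.86 and 6.12 CPM after 2 weeks and at 5.60, 4.71, 5.81 and 4.75 CPM after 5 weeks. All 5-week values lay lower, as for 2.56% of all tested genes, and no gene of the family lay wholly above, against 2.38%. Rpl9 had a log2 difference of -0.26 ± 0.11 (SE, adjusted p = 0.428), and of -0.30 without 5-week replicate 3. Rpl9's own row held 6.70% of the sum with its 7 sharing pseudogene rows, and in that sum the groups overlap, with a log2 difference of 0.21.

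**Figure D3:**
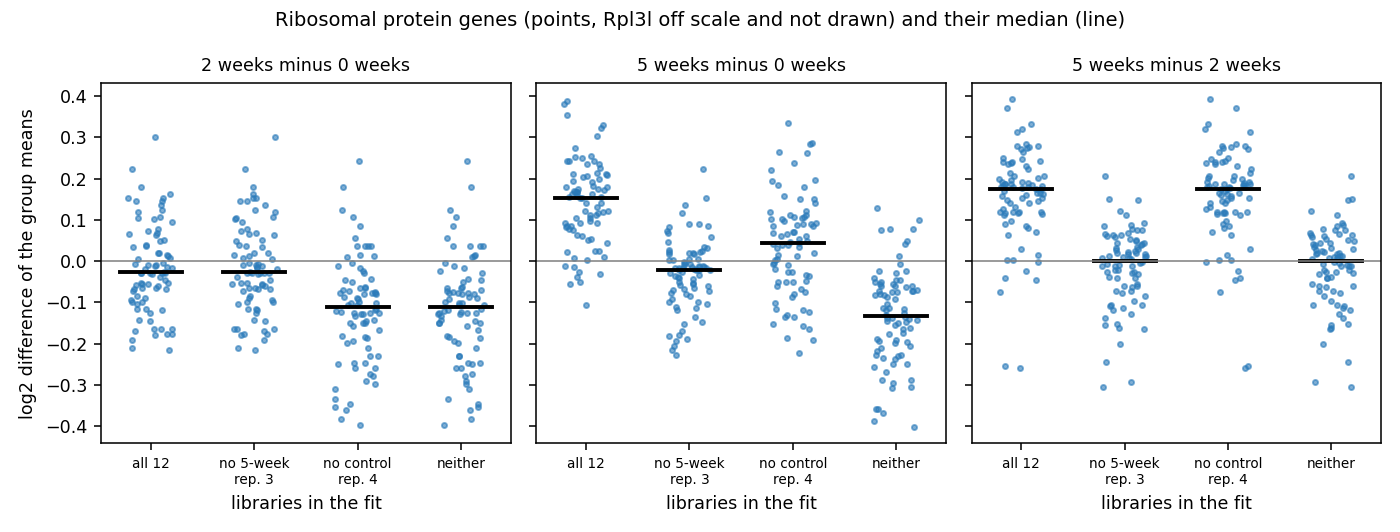
Log2 differences between group means for the ribosomal protein genes in each comparison (points) and their median (line, over all tested genes of the family), with all 12 libraries, without 5-week replicate 3, without control replicate 4 and with neither. In the middle panel the median moves from 0.15 to -0.02, 0.04 and -0.13.

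The moderated F-test over all 3 groups gave no adjusted p under 0.05 and 1 unadjusted p under 0.05 among the 82 genes, that of Rps16, where 10.8% of all tested genes had one. Adding up each gene with its sharing pseudogene rows, an alternative chosen after seeing the data, left 0 genes whose groups did not overlap in any of the 3 comparisons. Over all tested genes, as single rows, the share whose groups did not overlap was only 1.36% to 3.65% for a comparison and direction. In those sums 29 genes were higher after 2 weeks than at 0 weeks and 53 lower, and 81 were higher after 5 weeks and 1 lower. Of all tested genes, as single rows, 55.1% and 55.0% were higher. 5-week replicate 3 held the highest of the 4 sums at 5 weeks for all 82 genes. Control replicate 4 held the lowest of the 4 control sums for 77. Counts of the sums without these libraries are not given here, so no direction of the family is read from them.

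5-week replicate 3 stood high across the family, and the plot of all genes by library shows it as a single dark column. It held the highest of the 4 values at 5 weeks in 82 of 82 genes, against 36% of all tested genes, and the highest of all 12 values in 78 of 82, against 22.1%. The median gene lay 0.69 above the mean of the other 3 libraries on the log2 scale, or 1.61-fold. The values ran from 0.15 for Rpl10 to 1.13, and 59 genes lay over 1.5-fold above. The small subunit had a median of 0.76, the large subunit 0.65, the stalk 0.68 and the paralogues 0.63. In the pseudogene rows named after these genes it was 0.73 over 65 tested rows. Summed with all sharing rows, 82 of 82 genes were again highest of 4 in this library.

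Control replicate 4 departed the other way and by less. It held the lowest of 4 control values in 75 of 82 genes, against 29.9% of all tested genes, and the lowest of 12 in 65, against 18.4%. The median was -0.38, or 0.768-fold, and 20 genes lay over 1.5-fold below. Rplp2 was lowest by the most, at 59.3 CPM, with the other controls at 117, 104 and 124 CPM. The rows of Rps7 and Rpl7l1 hardly departed there, with log2 differences from the other controls of -0.05 and 0.01. Summed with its sharing pseudogene rows, Rps7 was lowest of the controls there, at 407 CPM. Genes with all of their 50-base stretches shared had a median of -0.48, and genes with under 50% shared a median of -0.27. By promoter letters, given without a test, the median in control replicate 4 was -0.44 for 25 tested genes with CCGGAAG and -0.37 for 37 without, and in 5-week replicate 3 it was 0.69 and 0.67. For AAGATGG the median in control replicate 4 was -0.26 for 10 genes with it and -0.43 for 52 without, and in 5-week replicate 3 it was 0.64 and 0.69. For CTCTTTC, with 18 genes against 44, the medians were -0.42 and -0.37 in control replicate 4 and 0.72 and 0.67 in 5-week replicate 3.

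**Figure D4:**
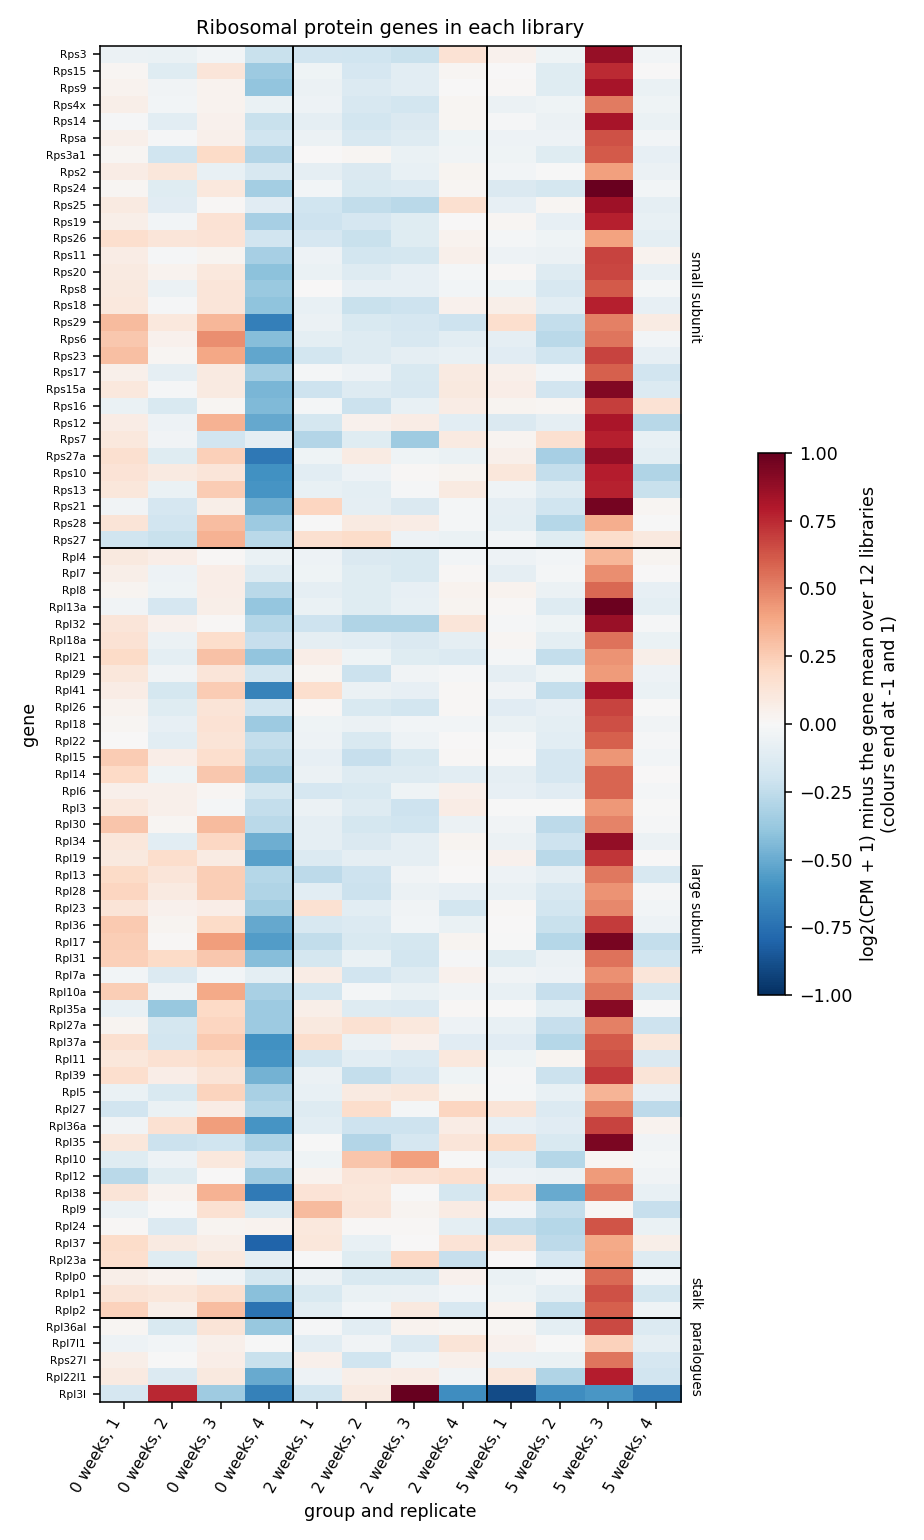
log2(CPM + 1) of 81 of the 82 tested ribosomal protein genes (rows, grouped by class and ordered by level) in each of 12 libraries (columns), minus the gene's mean over the 12. Red is above and blue below that mean. 5-week replicate 3 is red in nearly all rows and control replicate 4 mostly blue. Rpl3l is blue in both libraries.

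Other measures also departed in these 2 libraries, not always in the direction of the family. Protein-coding genes outside the family with transcripts under 1 kb (919 genes) had a median of 0.44 in 5-week replicate 3 and -0.28 in control replicate 4. Those of 1 to 2 kb had 0.20 and -0.14, and those of at least 2 kb -0.13 and 0.06. Proteasome core genes, whose products degrade proteins, had 0.49 and -0.25, and mitochondrial ribosomal protein genes 0.39 and -0.26. Red cell markers, all 6 tested of 10 listed, lay 2.29 above the other 5-week libraries, and their summed level was 16213 CPM there, beside 1510 to 4491 CPM in the other 5-week libraries and 1236 to 2604 CPM in the controls. In control replicate 4 they were 0.90 above, so they did not move there as the ribosomal genes did. All 10 B cell markers were highest of 4 in 5-week replicate 3, with a summed level of 788 CPM beside 405 to 413 CPM in the other 3. In the controls the B cell sum ran from 216 CPM in replicate 3 to 1271 CPM in replicate 2. Control replicate 4, at 241 CPM, was not the lowest. The 5 adipocyte markers were all highest of 4 in 5-week replicate 3, with a median of 1.90. Among the controls they did not follow the family: control replicate 2 lay 4.73 above the others, and control replicate 3, where 57 of the 82 ribosomal genes were highest, was the lowest for all 5 markers. Their summed level was 1417 CPM in control replicate 2 and 33.5 to 107 CPM in the other controls, and 125 CPM in 5-week replicate 3 beside 32.1 to 56.9 CPM in the other 3. The 5 cardiomyocyte markers had medians of 0.70 and -0.63, with 3 highest of 4 in 5-week replicate 3 and all 5 lowest of 4 in control replicate 4. Their summed level was 730 CPM in 5-week replicate 3 and 503 to 755 CPM in the other 5-week libraries. It was 607 CPM in control replicate 4 and 826 to 1053 CPM in the other controls. The highest sum was 1792 CPM, in 2-week replicate 2, where the family took 1.14% of the library. Endothelial markers had -0.31 and 0.16. The part of transcript length or of any of these cell types in the level of the family was not tested.

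**Figure D5:**
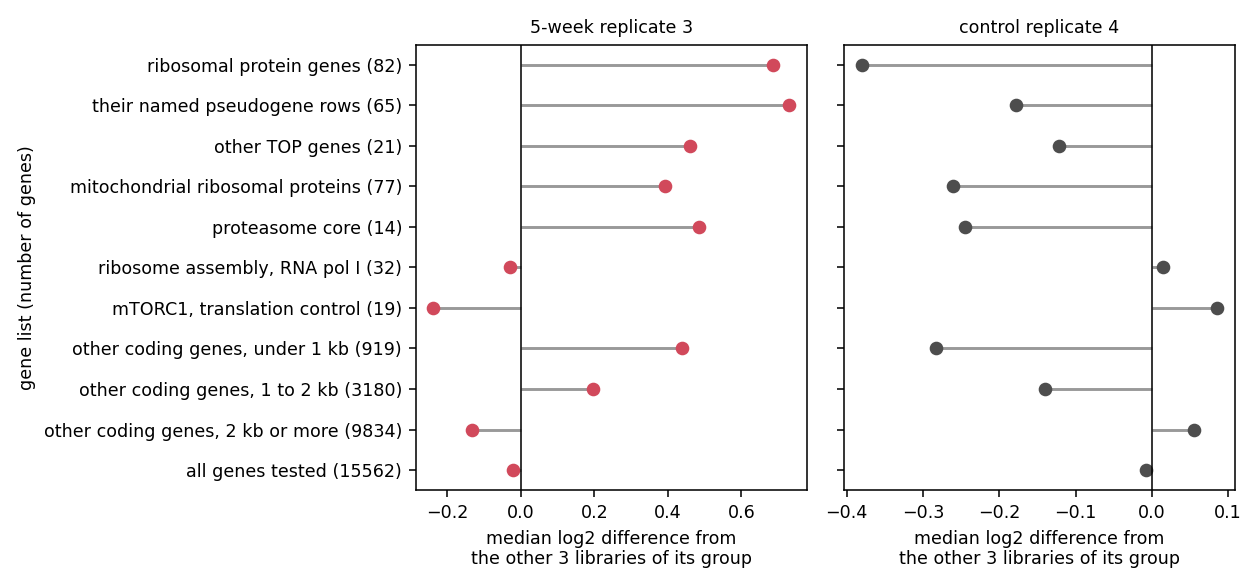
Median log2 difference between one library and the mean of the other 3 of its group, for lists of genes (number of genes in brackets), in 5-week replicate 3 (left) and control replicate 4 (right). Ribosomal protein genes lie at 0.69 and -0.38, short protein-coding genes at 0.44 and -0.28, and all tested genes near 0.

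Among small-subunit genes, Rps3, at the mRNA entry, was at 452, 449, 462 and 403 CPM in the controls and at 486, 457, 860 and 461 CPM after 5 weeks. Replicates 1 and 3 of the 5-week group lay above the controls, replicate 3 by far the more, and 2-week replicate 4 lay there too, at 519 CPM. Rpsa, also known as the laminin receptor, was at 370 ± 29.3 CPM at 0 weeks, 352 ± 13.6 at 2 weeks and 420 ± 111 at 5 weeks (SD, n = 4). Rps19, the gene most often mutated in Diamond-Blackfan anaemia, was at 239 ± 32.8, 224 ± 14.9 and 282 ± 91.7 CPM. Over the 31 small-subunit genes, 30 were higher and 1 lower at 5 than at 0 weeks, where 55.0% of all tested genes were higher. The small-subunit median log2 difference was 0.17, and none of the 31 genes passed the test. Without 5-week replicate 3 they were 11 higher and 20 lower.

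Among large-subunit genes, Rpl5 and Rpl11 join 5S ribosomal RNA in a complex that can hold Mdm2. Rpl5 was at 18.3 ± 3.17 CPM at 0 weeks, 19.8 ± 1.19 at 2 weeks and 19.9 ± 3.13 at 5 weeks (SD, n = 4). Rpl11 was at 26.3 ± 6.13, 24.9 ± 2.36 and 29.4 ± 8.22 CPM. Their groups overlap in all comparisons, and both rows are small beside their sharing pseudogene rows, at 543 and 282 CPM. Over the 43 large-subunit genes, 36 were higher and 7 lower at 5 than at 0 weeks, where 55.0% of all tested genes were higher. The 43 genes had a median of 0.12, and without 5-week replicate 3 they were 14 higher and 29 lower.

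Of the 3 stalk genes, Rplp0 and Rplp1 were at several times the level of Rplp2. Rplp0, the stalk's anchor, was at 678, 666, 637 and 577 CPM in controls, at 624, 585, 585 and 672 CPM after 2 weeks and at 622, 640, 964 and 639 CPM after 5 weeks. Apart from replicate 3, the 5-week values lie inside the control range. Rplp1 was at 359 ± 62.1, 337 ± 12.4 and 387 ± 112 CPM, and Rplp2 at 101 ± 29.1, 96.6 ± 7.52 and 108 ± 29.5 CPM (SD, n = 4). Spread was smallest at 2 weeks for all 3, and limma adjusted p-values lay between 0.613 and 0.988.

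Paralogues were compared with their partners as the log2 ratio of CPM + 1 per library. In 5 pairs both genes were tested, which gives 15 comparisons. Coding identity was 73.1% for Rpl3l with Rpl3, 52.7% for Rpl7l1 with Rpl7, 66.9% for Rpl22l1 with Rpl22, 87.7% for Rpl36al with Rpl36a and 76.2% for Rps27l with Rps27. No ratio passed a two-sided exact permutation test after adjustment over the 15 (lowest adjusted p = 0.429). That value belongs to Rpl3l with Rpl3, a pair not read further for the reason given below. The other pairs had adjusted p-values of at least 0.791 in the same test. With 4 against 4 mice the smallest p is 0.0286, so a single ratio could not have passed that adjustment. Rpl36al, at 85.7 CPM, and Rps27l, at 39.8 CPM, were deposited at higher levels than their partners Rpl36a, at 14.5 CPM, and Rps27, at 1.61 CPM. All 50-base stretches of those 2 partners occur in other genes. Rpl22l1, which can replace Rpl22 when that is lost, was at 23.0 CPM beside 149 CPM for Rpl22. Its log2 ratio was -2.72 ± 0.15 at 0 weeks, -2.59 ± 0.12 at 2 weeks and -2.68 ± 0.21 at 5 weeks (SD, n = 4).

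Rpl3l, which takes the place of Rpl3 in striated muscle, behaved unlike the rest. It was at 0.918, 2.63, 0.680 and 0.347 CPM in controls and at 0.872, 1.28, 32.7 and 0.399 CPM after 2 weeks. After 5 weeks it was at 0.154, 0.395, 0.437 and 0.322 CPM. One library, 2-week replicate 3, carries the 2-week mean of 8.80 ± 15.9 CPM. Since it passed the filter only through that library, its ratio to Rpl3 is not read further. The skeletal muscle markers Acta1, Ckm, Myh4 and Tnnt3, all 4 of 4, averaged 10.62 on the log2 scale in 2-week replicate 3, 5.62 in control replicate 2 and between 1.21 and 2.19 in the other 10 libraries. Myh4 was listed at 0 in 8 of those 10. The same 2 libraries hold the 2 highest levels of Rpl3l, and the part of muscle tissue in these values was not tested.

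Lists of related genes were counted in the same fits, and with limma none of their genes passed an adjusted p of 0.05. At 5 against 0 weeks an unadjusted p under 0.05 was found for 0 of 21 other TOP genes, 0 of 32 assembly genes, 1 of 19 genes of translation control, 4 of 77 mitochondrial ribosomal protein genes and 1 of 14 proteasome genes, beside 8.63% of all tested genes. Other genes with a TOP motif (21, such as the elongation factor Eef1a1 and Rack1) were 17 higher and 4 lower at 5 than at 0 weeks. Of all tested genes 55.0% were higher. The 21 genes had a median of 0.09, and they were 8 higher and 13 lower without 5-week replicate 3. Fau, which encodes a ribosomal protein fused to a ubiquitin-like part and falls outside the symbol rule, belongs here. Fau was at 31.0 ± 9.57, 27.6 ± 2.35 and 32.5 ± 10.5 CPM at 0, 2 and 5 weeks (SD, n = 4). It was lowest of the controls in control replicate 4, at 17.0 CPM.

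Genes of ribosome assembly and RNA polymerase I (32) were 16 higher and 16 lower at 5 than at 0 weeks, with a median of 0.01. At 2 against 0 weeks they were 9 higher and 23 lower, with a median of -0.06, where 55.1% of all tested genes were higher. From 2 to 5 weeks they were 28 higher and 4 lower, with a median of 0.09, where 50.2% of all tested genes were higher. Without 5-week replicate 3 they were 25 higher and 7 lower from 2 to 5 weeks, with a median of 0.10. In 5-week replicate 3 the median departure of the assembly genes was -0.03, where the ribosomal protein genes had 0.69. Gnl3, a nucleolar GTP-binding protein, had the smallest p of this list after 2 weeks, with a log2 difference of -0.28 ± 0.09 (SE, limma adjusted p = 0.410). Genes of mTORC1 and translation control (19) were 5 higher and 14 lower at 5 than at 0 weeks, with a median of -0.06, and 10 higher and 9 lower without 5-week replicate 3. Eif4e, the cap-binding protein, was 0.16 ± 0.07 higher (SE, adjusted p = 0.563).

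Mitochondrial ribosomal protein genes (77 tested), the counterpart in mitochondria, were 66 higher and 11 lower after 2 weeks, with a median of 0.11. The cytosolic genes were 32 and 50. Of all tested genes 55.1% were higher there, and of protein-coding genes outside the family with transcripts under 1 kb 75.3%, with a median of 0.10. Without control replicate 4 the 77 genes were 56 higher and 21 lower, with a median of 0.05. At 5 weeks the 77 genes were 71 higher and 6 lower, with a median of 0.10. They were 44 higher and 33 lower without 5-week replicate 3, and 24 higher and 53 lower without both libraries. Mrps9 had the smallest p after 2 weeks, with a log2 difference of 0.43 ± 0.11 (SE, limma adjusted p = 0.269). Proteasome core genes (14) were 14 higher and 0 lower at 5 than at 0 weeks, with a median of 0.14, where 55.0% of all tested genes were higher, and 80.4% of protein-coding genes with transcripts under 1 kb, with a median of 0.12. All 14 were highest of 12 in 5-week replicate 3, and 13 were lowest of 12 in control replicate 4. Without 5-week replicate 3 they were 8 higher and 6 lower, and without both libraries 3 higher and 11 lower. These comparisons share control libraries, so the values are given side by side only.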

How the data were processed

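Whole-lung RNA of 12 mice was sequenced. The authors deposited 1 table of CPM values for 23127 genes, with 0.0001 added to each cell. The submitters' processing notes list TopHat2, Partek and mm10 with no versions. The handling of multi-mapped reads, the annotation and the use of strand: not given in the sources used here. Low values lay mostly on whole steps (87.8% to 88.3% within 0.1 of a step), too few for counts to be recovered, so no count model was fitted and no counting interval is given. Genes averaging at least 1 CPM were analysed as log2(CPM + 1), a scale that understates changes of low genes. Limma 3.58.1 in R 4.3.3 fitted 3 group means over all 12 libraries, with variances moderated along a trend. Tests were two-sided, with Benjamini-Hochberg adjustment and a threshold of 0.05, and were tested on simulated data. Replicates are separate mice per the labels. Members and lists were chosen with earlier results of these data known. Named genes were the 5 highest and 5 lowest differences per comparison, a preset group of members, the paralogue pairs, the 5 most and least abundant per kb, and the smallest p of each list. The promoters shown, Rps3a1 and the markers described were picked after their values were seen. Transcript lengths and shared 50-base stretches came from GENCODE M21. The table's gene starts match that annotation for 501 of 23073 genes, so no build is named for its positions, and an end is the deposited stop minus 1. Scripts ran in Python 3.11.15 with Biopython 1.88, pandas 2.3.3, scipy 1.17.1, numpy 2.4.6 and matplotlib 3.10.9. Alternatives were offsets of 0.1 and 5, no filter and 10 CPM, other scalings, library weights, robust moderation, only the groups compared, and leaving out libraries. Counts of the related lists with libraries left out were added after seeing the data. Among the genes described, 2 are not reported here by name, and they stay in the counts but out of the plots that name genes.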

Additional observations from a re-analysis of the deposited data

Results flagged for a closer look

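Of 147 groups of 4 values examined for the named genes, the family mean and the family share, 32 (21.8%) had a highest or lowest library whose gap to the next, as a share of the range, exceeded Dixon's critical value for 4 samples. A rate of about 1 in 20 would hold for independent groups. These groups share the same 12 libraries, and many of the genes were named for their differences, so 21.8% cannot be set against it. Over all tested genes a high library stood out for 3.21% in the controls, 3.93% at 2 weeks and 4.58% at 5 weeks. A low library stood out for 2.74%, 2.54% and 6.73%. Over all 82 tested genes, 31 (37.8%) had a high library standing out at 5 weeks, against 4.58% of all tested genes, and 12 (14.6%) a low library among the controls, against 2.74%.

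5-week replicate 3 was the high library in 21 of the 32. There the family mean was 6.84 on the log2(CPM + 1) scale and the share of the library 1.97%. In the small subunit it held Rps3 at 860 CPM, Rps4x at 579 CPM, Rps9 at 803 CPM, Rps14 at 668 CPM, Rps15 at 789.8 CPM, Rps19 at 419 CPM, Rps25 at 464 CPM and Rpsa at 587 CPM. In the large subunit it held Rpl3 at 153 CPM, Rpl5 at 24.6 CPM, Rpl12 at 11.1 CPM, Rpl13 at 100.9 CPM, Rpl13a at 895 CPM, Rpl22 at 223 CPM, Rpl32 at 450.4 CPM and Rpl35a at 91.3 CPM. The stalk genes Rplp0 and Rplp1 were at 964 CPM and 554 CPM, and the paralogue Rps27l at 57.5 CPM.

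Control replicate 4 was the low library in 6: Rpl11 at 17.2 CPM, Rpl31 at 43.1 CPM, Rpl37 at 0.998 CPM, Rpl39 at 15.0 CPM, Rplp1 at 267 CPM and Rps9 at 344 CPM. Control replicate 3 was high for Rps27 at 2.29 CPM. 2-week replicate 2 was high for Rps27a at 37.6 CPM, and 2-week replicate 3 for Rpl3l at 32.7 CPM. 2-week replicate 4 was high for Rps25 at 288 CPM and Rps3 at 519 CPM.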

How the results depend on the processing

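With limma, 0 of the tested ribosomal protein genes passed an adjusted p of 0.05 in all 3 comparisons and the F-test, under every alternative run. What changed was the direction of the family. Leaving out 1 library at a time, the median log2 difference ranged from -0.11 to 0.03 for 2 against 0 weeks, from -0.02 to 0.23 for 5 against 0 weeks and from 0.00 to 0.23 for 5 against 2 weeks. The mean over the family ranged from -0.11 to 0.05, from -0.04 to 0.21 and from -0.03 to 0.21. Control replicate 4 and 5-week replicate 3 were also both left out, a choice made after seeing that the family stood apart in them. For 2 against 0 weeks, 27 of 82 genes then had an unadjusted limma p under 0.05, against 1 with all libraries. Over all tested genes it was 1430 of 15558, against 1438 of 15562 with all libraries. In the family the lowest adjusted p was then 0.108, and 14 genes were higher and 68 lower. With library weights, 5 against 2 weeks gave 881 called genes over the whole table and 0 of the family (lowest adjusted p 0.0801), with 55 of the family higher and 27 lower, and 5 against 0 weeks gave 28 higher and 54 lower. Without control replicate 2, 2-week replicate 3 and 5-week replicate 3, 5 against 0 weeks gave 33 higher and 48 lower. For the ratios of paralogue to partner the adjustment left no way for a single ratio to pass, so their alternatives say nothing of stability. No paired analysis was possible because the replicate numbers only name libraries in accession order. Low levels limit Rps27, at under 3 CPM in all 12 libraries, Rpl39l, Rpl3l, Rpl23a and Rpl37, each averaging under 3 CPM apart from the 1 high library of Rpl3l.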
